A study of Mus musculus with 10 samples.

Results

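The MARK, NUAK, BRSK and SNRK kinases are the AMPK-related protein kinases downstream of LKB1 that belong neither to AMPK itself nor to the salt-inducible kinases. The family was taken as the 9 genes Mark1, Mark2, Mark3, Mark4, Nuak1, Nuak2, Brsk1, Brsk2 and Snrk, and a gene was measured where a probe set of the array named it and no other gene. This held for 7 of the 9, out of 22180 genes named in this way. Brsk1 and Brsk2, which encode kinases known for shaping neuronal polarity, appear only on probe sets that name a second gene, and they therefore have no value of their own here. Genes were taken by family and not by their level, and the family was proposed with earlier results of these data known.

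LKB1, the product of Stk11, is a master kinase that works in a complex with a STRAD pseudokinase and a MO25 scaffold protein. It switches on its downstream kinases by phosphorylating a threonine in their activation loop. The MARK kinases, mammalian relatives of the Par-1 polarity kinases, detach microtubule-associated proteins from microtubules and create docking sites for 14-3-3 proteins. The NUAK kinases act on myosin phosphatase and so on cell contraction and adhesion, and SNRK was described in neural, vascular and blood-forming tissue. An array reads messenger RNA, so the values below concern how much transcript of each kinase was present and not whether the kinase was phosphorylated.

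The samples were regulatory T (Treg) cells, the CD4 T cells that restrain immune responses, sorted from mouse bone marrow chimeras that carried marrow of more than 1 kind and used without culture. They formed 5 WT samples (wild-type genotype) and 5 LKB1-deficient samples (Stk11 deletion), each on its own array of 41345 probe sets. The sources used here name neither the promoter that drove the deletion nor the hosts or the age of the animals. They also leave unstated whether each sample is a separate animal, so a p-value describes the scatter of these samples only, which could be technical. The running codes in the sample descriptions place replicates 1 to 3 of both groups in a first set and replicates 4 and 5 in a second, and the meaning of these codes is not stated. All levels are log2 signals. A difference is LKB1-deficient minus WT on that scale, with the standard error (SE) of a limma fit across all genes, and the threshold for a call was an adjusted p (Benjamini-Hochberg, over all genes) under 0.05. The number of arrays limits the precision.

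Array medians lay between 4.83 and 4.86 in WT and between 4.88 and 4.94 in LKB1-deficient samples, without overlap between the groups. Foxp3, which defines Treg cells, averaged 11.09 ± 0.09 on the WT and 11.03 ± 0.67 on the LKB1-deficient arrays (SD, n = 5 each), of which array 1 was at 9.86. The Treg marker list as a whole averaged 10.04 to 10.23 in WT. In the LKB1-deficient group its averages were 9.07, 10.00, 9.96, 9.79 and 9.64 for arrays 1 to 5, all below the WT range. Of its 8 genes 3 were called lower, namely Itgae (-1.29, limma adjusted p = 0.00882), Nrp1 (-1.27, adjusted p = 0.00893) and Izumo1r (-0.70, adjusted p = 0.0209), and 0 were called higher. The remaining genes, Foxp3, Il2ra, Ikzf2, Ctla4 and Tnfrsf18, lay below every WT array on LKB1-deficient array 1. On LKB1-deficient array 2 they lay above every WT array, at 11.41, 11.23, 10.50, 9.98 and 10.81 in that order. On array 3 all of them but Ctla4 did so. The list average thus does not describe each of its genes. Of 8 measured T cell identity genes 0 were called, with 6 negative differences and 3 unadjusted limma p-values under 0.05, and the list averaged 11.04 to 11.09 in WT and 10.83 to 11.10 in LKB1-deficient samples. The part of these marker differences in the results on the kinases was not tested. Stk11 itself was at 6.78 ± 0.15 and 6.42 ± 0.37 (SD, n = 5 each), which is a difference of -0.36 (SE 0.16), short of the threshold (limma adjusted p = 0.335). Its WT range was 6.61 to 6.95, and LKB1-deficient arrays 4 (6.71) and 5 (6.78) fell inside that range. Array 1 (6.57) lay just below it, and arrays 2 (6.01) and 3 (6.05) lay further below. The sources used here do not say which exons the deletion removed or where the probes of Stk11 lie, so "LKB1-deficient" refers to the arrays labelled so. Marker genes of macrophages and B cells were higher on some LKB1-deficient arrays, which is given below beside the genes it moved with. In bulk samples, fewer cells of a type and less RNA per cell cannot be told apart.

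None of the 7 kinase genes differed between LKB1-deficient and WT Treg cells by the limma test. Over all genes, 1.06% were called (236 of 22180). At an unadjusted p under 0.05, 1 of the 7 stood out, Nuak2, where 14.0% of all genes did. Which gene did so depended on the fit. In the linear fit without moderation of variances, Mark1 had an unadjusted p of 0.0177 (adjusted p = 0.255) and Nuak2 one of 0.0624 (adjusted p = 0.407). Of the 7 differences 3 were negative and 4 positive. Their median was 0.07, beside 0.00 over all genes, and the median of their sizes regardless of sign was 0.07, beside 0.12 over all genes. For Mark1, Mark2, Mark3, Mark4 and Snrk the 95% confidence intervals of the differences lay between -0.33 (the lower bound of Snrk) and 0.30 (the upper bound of Mark4). They were wider for Nuak1, from -0.22 to 0.44, and Nuak2, from 0.08 to 0.99.

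**Figure D1:**
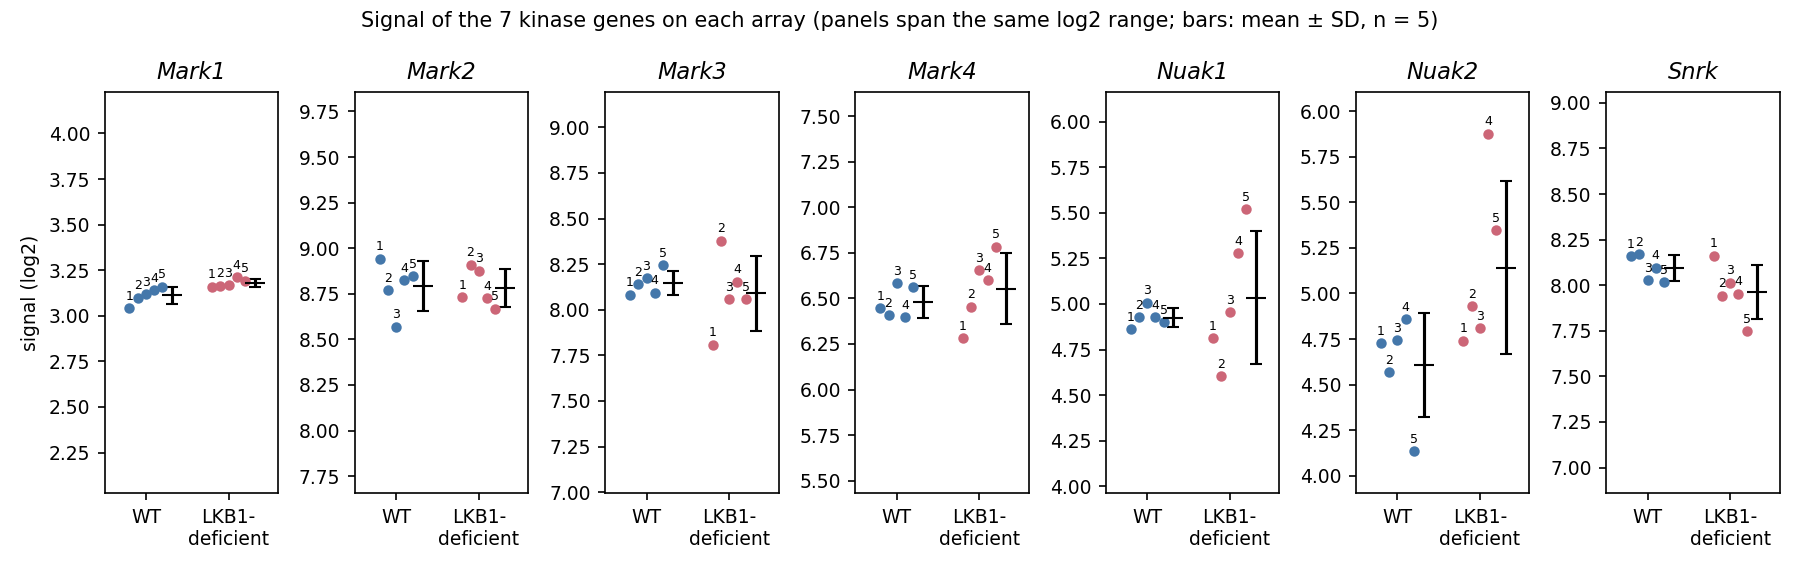
Log2 signal of each kinase gene on each array, WT in blue and LKB1-deficient in red, with the replicate number above each point and the mean ± SD of 5 arrays as a black bar. The panels have different starting points but span the same log2 range. The SD among LKB1-deficient arrays was 0.37 for Nuak1 and 0.47 for Nuak2 and at most 0.21 for the other genes; arrays 4 and 5 were at 5.28 and 5.52 for Nuak1 and at 5.88 and 5.35 for Nuak2.

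Mark2 encodes a MARK kinase that helps to set epithelial polarity and in the mouse is known to affect immune homeostasis. Its probe set (17362289, Entrez gene 13728) gave 8.94, 8.77, 8.57, 8.83 and 8.85 on WT arrays 1 to 5. On LKB1-deficient arrays 1 to 5 it gave 8.73, 8.91, 8.88, 8.73 and 8.67. The second range lay inside the first, from 8.57 to 8.94. The means were 8.79 ± 0.14 and 8.78 ± 0.10 (SD, n = 5 each), a difference of -0.01 (SE 0.09, limma adjusted p = 0.982). The 95% confidence interval of the ratio of LKB1-deficient to WT ran from 0.863 to 1.15, and the sign of so small a difference depended on the arrays and scaling used.

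Mark3, also called C-TAK1, encodes a kinase that creates 14-3-3 binding sites on the phosphatase CDC25C and the scaffold KSR1. Its probe set (17279169, Entrez gene 17169) read 8.08, 8.14, 8.17, 8.09 and 8.24 on WT arrays 1 to 5. The LKB1-deficient arrays read 7.81, 8.38, 8.06, 8.15 and 8.06. LKB1-deficient array 1 was below every WT array and array 2 above every one, so the groups overlapped while the deficient group was wider, with an SD of 0.21 against 0.07. The difference was -0.06 (SE 0.10, limma adjusted p = 0.864), with a 95% confidence interval of the ratio from 0.822 to 1.13.

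Mark4 encodes a MARK kinase found at centrosomes and along microtubules. The signal of its probe set (17487249, Entrez gene 232944) was 6.45, 6.41, 6.58, 6.40 and 6.56 on WT arrays 1 to 5. The LKB1-deficient arrays gave 6.28, 6.45, 6.65, 6.60 and 6.78 in the same order. Here too LKB1-deficient array 1 was the lowest of all 10, and arrays 3, 4 and 5 lay above the WT arrays. The difference was 0.07 (SE 0.10, limma adjusted p = 0.803), and the ratio had a 95% confidence interval from 0.901 to 1.23.

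Mark1, best known from the brain, gave signals near the low end of the scale. Its probe set (17230760, Entrez gene 226778) was at 3.04, 3.10, 3.12, 3.14 and 3.16 on WT arrays 1 to 5. LKB1-deficient arrays 1 to 5 were at 3.16, 3.17, 3.17, 3.21 and 3.19. It belonged to the 40% of genes with the lowest mean, below a log2 signal of 4.53, and no detection calls came with the values used here, so whether this signal differs from background is unknown. The groups did not overlap, as in 4.71% of all genes, with WT array 5 and LKB1-deficient array 1 equal to 2 decimals. The difference was 0.07 (SE 0.07, limma adjusted p = 0.736). It was 0.02 (adjusted p = 0.947) once the array medians, which also did not overlap between the groups, were subtracted.

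NUAK2, also called SNARK, is a kinase that responds to energy stress and to cell contraction. Nuak2 had the largest difference of the 7. Its probe set (17217182, Entrez gene 74137) was at 4.73, 4.57, 4.74, 4.86 and 4.13 on WT arrays 1 to 5. On LKB1-deficient arrays 1 to 5 it was at 4.74, 4.93, 4.81, 5.88 and 5.35. Arrays 2, 4 and 5 of the deficient group lay above every WT array, arrays 1 and 3 lay within the WT range, and WT array 5 was the lowest of the 10. The means were 4.61 ± 0.28 and 5.14 ± 0.47 (SD, n = 5 each). This WT mean was below the WT array medians of 4.83 to 4.86 and just above the cut of 4.53 for the dimmest 40% of genes. Without detection calls, how far the signal of Nuak2 stands from background is unknown. The difference of 0.53 (SE 0.21), a 1.45-fold higher signal with a 95% confidence interval from 1.05 to 1.99, had an unadjusted p of 0.0257 in the limma fit and missed the threshold over all genes (adjusted p = 0.270).

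NUAK1, also called ARK5, is known for its part in cell adhesion and in the growth of MYC-driven cells. The Nuak1 probe set (17243604, Entrez gene 77976) lay at 4.86, 4.93, 5.01, 4.93 and 4.90 on WT arrays, a narrow range with an SD of 0.05. The WT mean of 4.92 was close to the WT array medians, and the distance of this signal from background is likewise unknown. The LKB1-deficient arrays lay at 4.81, 4.61, 4.96, 5.28 and 5.52, with an SD of 0.37. Arrays 1 and 2 were below every WT array, arrays 4 and 5 above every one. The difference was 0.11 (SE 0.15, limma adjusted p = 0.801), with a 95% confidence interval of the ratio from 0.860 to 1.35.

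For both NUAK genes the high arrays were LKB1-deficient 4 and 5, the only LKB1-deficient arrays of the second set. Within the first set, 3 arrays against 3, the difference of Nuak2 was 0.15 (limma adjusted p = 0.730) and that of Nuak1 was -0.14 (adjusted p = 0.764). Within the second set, 2 against 2, they were 1.11 (adjusted p = 0.156) and 0.48 (adjusted p = 0.236). None of these passed. The change in the difference from the first set to the second was 0.97 (SE 0.30) for Nuak2 and 0.63 (SE 0.20) for Nuak1 in a fit with an interaction term, and neither passed over all genes (limma adjusted p = 0.316 and 0.345), whereas 240 of 22180 genes did. That fit was added after the values had been seen.

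Marker genes of other cell types were high on the same arrays. On LKB1-deficient array 4 the monocyte, macrophage and dendritic cell list averaged 9.56, and on array 5 it averaged 9.68. The averages were 6.78 to 7.20 in WT and 7.46, 6.87 and 7.14 on the LKB1-deficient arrays of the first set. All 15 genes of that list had positive differences and 0 of them passed the limma test. None can be read as 0 on a WT array, since the scale has no zero. Csf1r, the receptor that defines the lineage, had a WT range of 6.94 to 7.53, and LKB1-deficient array 4 gave 10.55 and array 5 gave 10.49. Not every gene of the list was high on arrays 4 and 5 alone. Itgax, with a WT range of 4.32 to 4.67, was at 6.58 on LKB1-deficient array 1, 6.42 on array 4 and 7.15 on array 5. The groups did not overlap in 3 of the 15 genes, Lyz2, Itgax and Itgam, beside 4.71% over all genes. The B and plasma cell list, with 11 positive differences of 11 and 0 called, averaged 5.61 to 5.93 in WT. In the LKB1-deficient group it averaged 5.82 (array 2) and 5.88 (array 3), and 7.21, 6.92 and 7.12 on the remaining arrays 1, 4 and 5. The NK and innate lymphoid list of 10 genes averaged 4.80 to 5.06 in WT, 4.82 and 4.96 on LKB1-deficient arrays 2 and 3, and 5.75, 5.48 and 5.67 on arrays 1, 4 and 5, with Klrd1 called higher and Nkg7 called lower. The 3 measured erythroid and platelet genes averaged 5.41 to 5.70 in WT, 5.98, 5.75 and 5.93 on LKB1-deficient arrays 1 to 3, and 7.36 and 6.99 on arrays 4 and 5. The platelet gene Ppbp stood at 8.97 and 8.89 on those arrays (1.28, limma adjusted p = 0.274), and Gp9, a platelet glycoprotein gene, was called higher (0.95, adjusted p = 0.0204). Of the 2 CD8 T cell genes Cd8a was called higher (0.77, adjusted p = 0.0423). The other, Cd8b1, was not (0.08, adjusted p = 0.790), and its highest value, 8.05, was on WT array 1. The average of both was 6.38 to 6.71 in WT and 6.88 to 7.18 in LKB1-deficient samples, a gap that came mostly from Cd8a. The neutrophil list, with 0 of 8 genes called, averaged 4.11 to 4.53 in WT and 5.38, 3.95, 4.45, 4.62 and 4.73 on LKB1-deficient arrays 1 to 5. When both the macrophage and the B cell averages entered the fit, the difference of Nuak2 was 0.29 (limma adjusted p = 0.566) and that of Nuak1 was -0.16 (adjusted p = 0.632). After removal of the 3 LKB1-deficient arrays 1, 4 and 5 these differences became 0.26 (adjusted p = 0.570) and -0.14 (adjusted p = 0.662). Arrays 4 and 5 held the 2 highest values of each NUAK gene and of the macrophage list average, so these fits are not independent of that pattern. The part of these cells in the NUAK signals was not tested.

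**Figure D2:**
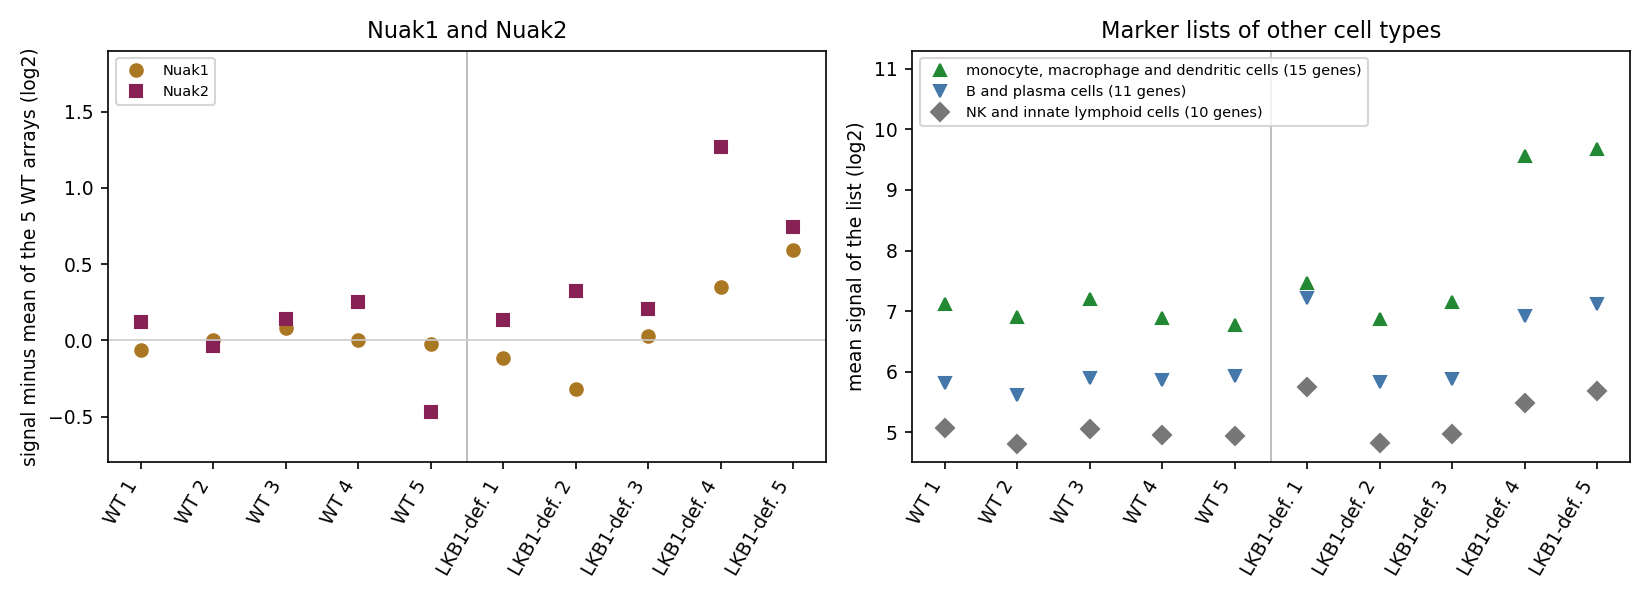
Left, Nuak1 and Nuak2 on each array as the log2 signal minus the mean of the 5 WT arrays; right, the mean log2 signal of 3 marker lists on the same arrays. On LKB1-deficient arrays 4 and 5 Nuak2 was 1.27 and 0.74 above the WT mean and Nuak1 was 0.35 and 0.59 above it, and the monocyte, macrophage and dendritic cell list stood at 9.56 and 9.68.

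The 5 genes whose signal followed Nuak2 most closely over the 10 arrays, by Pearson r across arrays and passing over predicted and clone names, were Mras (0.96), which encodes a small GTPase of the Ras family, the metalloproteinase gene Mmp19 (0.92), Ace, which encodes angiotensin-converting enzyme (0.92), Mefv, which encodes the inflammasome protein pyrin (0.92), and Ube2e2, a ubiquitin-conjugating enzyme gene (0.92). In each, as in Nuak2, the 2 highest arrays were LKB1-deficient 4 and 5. Mras, with a WT range of 3.49 to 4.12, below the cut of 4.53 for dim genes, reached 5.66 and 4.67 there. Over the other 8 arrays r fell to 0.83 for Mras, 0.77 for Ace, 0.63 for Mefv and 0.62 for Mmp19 and Ube2e2, so part of the likeness rested on those 2 arrays. The genes were picked by r over all 10 arrays. Both the shared high arrays and the fall in r without them were therefore largely set by that choice. None of the 5 genes differed between the groups by the limma test (adjusted p from 0.178 for Ace to 0.545 for Mmp19).

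Snrk encodes the SNF-related kinase, which forms a branch of the family by itself. Its probe set (17523398, Entrez gene 20623) was at 8.16, 8.17, 8.03, 8.10 and 8.02 on WT arrays 1 to 5. It was at 8.16, 7.94, 8.01, 7.95 and 7.75 on LKB1-deficient arrays 1 to 5. LKB1-deficient arrays 2 to 5 were below every WT array, array 3 by less than 0.01, while array 1 lay within the WT range. The difference was -0.13 (SE 0.09, limma adjusted p = 0.580), and the ratio had a 95% confidence interval from 0.795 to 1.05. Within the first and second sets the differences were -0.08 and -0.21. Over the 24 alternative fits run for Snrk the estimate ranged from -0.21 to -0.08. Several of these fits change only the SE or the adjustment, so the sign could not turn in them, and the others reuse the same arrays.

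**Figure D3:**
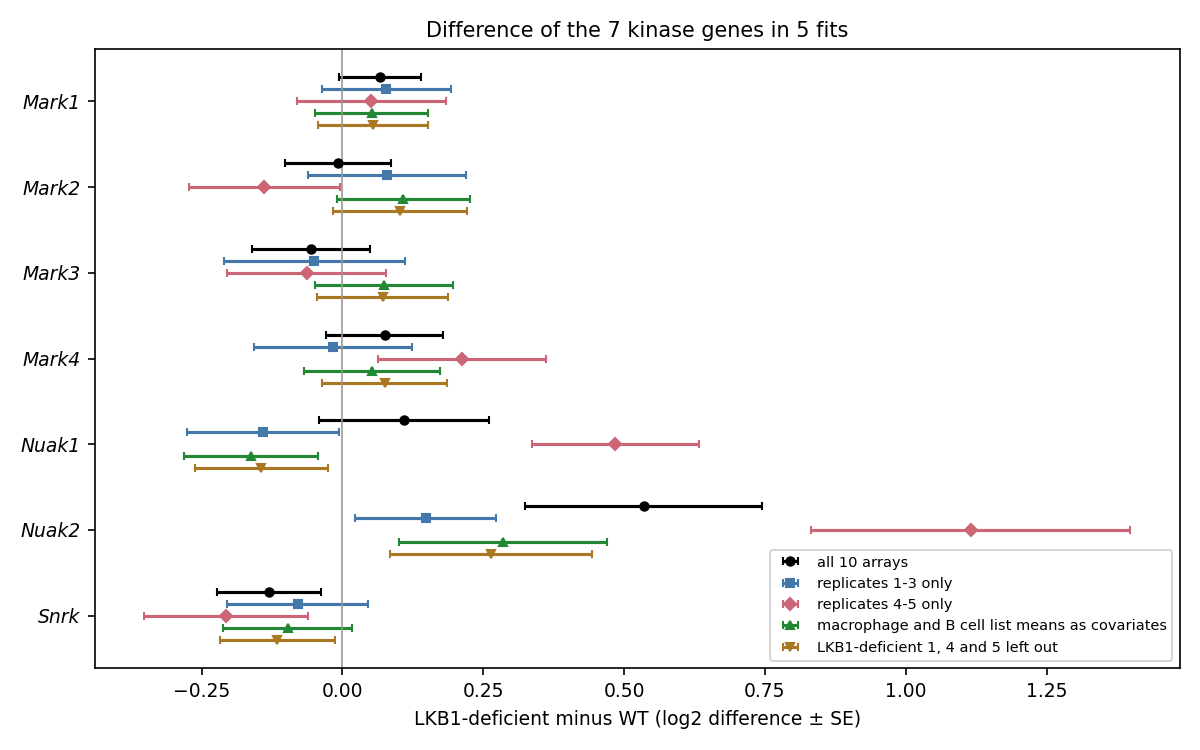
Difference of each kinase gene, LKB1-deficient minus WT in log2 units with its SE, from all 10 arrays (black circles) and from 4 other fits. The sets lie furthest apart for Nuak2, at 0.15 in replicates 1 to 3 and 1.11 in replicates 4 and 5, and for Nuak1, at -0.14 and 0.48.

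Counted by array, LKB1-deficient array 5 had 6 of the 7 kinase genes outside the range of the 5 WT arrays, 4 above and 2 below. Arrays 2 and 4 had 5 outside it, and arrays 1 and 3 had 4. Over all genes, 55.7%, 45.7%, 41.4%, 46.7% and 46.6% lay outside the WT range on LKB1-deficient arrays 1 to 5, and array 1 had the highest share. Of the 5 LKB1-deficient arrays, array 1 had the lowest Mark3 and Mark4 signals and array 5 the lowest Mark2 and Snrk signals. The SD among WT arrays was 0.05 to 0.28 over the 7 genes, with a median over all genes of 0.15, and among LKB1-deficient arrays it was 0.02 to 0.47, with a median over all genes of 0.21. It was larger in the deficient group for 5 of the 7, Mark1 and Mark2 being the exceptions.

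The genes around these kinases were read from 9 lists drawn from general knowledge, with 75 different genes measured. In the limma fit 0 of the 75 were called, 15 had an unadjusted p under 0.05, which is 20.0% beside 14.0% over all genes, and 49 had negative differences. Their median difference was -0.06. The groups did not overlap in 5 of the 75, or 6.67%, beside 4.71% over all genes. The smallest adjusted p was 0.0838, that of Sik1.

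Upstream, all 5 genes of the LKB1 complex had negative differences, with a median of -0.36 and 0 called. Cab39l, which encodes a form of the MO25 scaffold, was at 7.13 to 7.44 on WT and at 6.18 to 7.01 on LKB1-deficient arrays, without overlap, and its difference was -0.57 (SE 0.15, limma adjusted p = 0.0904). It passed without LKB1-deficient array 1, at -0.43 (adjusted p = 0.0492). Cab39, the other MO25 gene, differed by -0.36 (adjusted p = 0.142), Stk11 by -0.36 and Strada, one of the pseudokinase genes, by -0.21 (adjusted p = 0.565). Stk11 did pass in the fit that held both marker list averages (-0.77, adjusted p = 0.0122). It also passed after removal of the 3 LKB1-deficient arrays 1, 4 and 5 (-0.75, adjusted p = 0.0178), where it was highest in its group. Both marker list averages were also highest in that group on these arrays, so these fits are not independent of each other.

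Among the other AMPK-related kinases 0 of 8 were called, and 3 had negative differences. Sik1, a salt-inducible kinase gene, was at 8.58 to 9.04 on WT and 9.11 to 9.44 on LKB1-deficient arrays, without overlap (difference 0.43, SE 0.11, limma adjusted p = 0.0838). It passed without LKB1-deficient array 1 (0.48, adjusted p = 0.0389), with a trended robust prior (0.43, adjusted p = 0.0425) and with array quality weights (0.46, adjusted p = 0.0434). Of the catalytic AMPK subunit genes, Prkaa1 was at 0.23 (adjusted p = 0.284) and Prkaa2 at -0.07 (adjusted p = 0.870). Hunk, at 0.21 (adjusted p = 0.274), and Melk, a cell cycle-linked member that LKB1 does not activate, at -0.25 (adjusted p = 0.304), did not pass either, and Nim1k was at 0.04. The members and their relatives were measured on the same 5 WT and 5 LKB1-deficient samples, so the differences are set side by side only.

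In a list of proteins that may act on MARK or NUAK kinases, 0 of 9 measured genes were called, with a median difference of -0.14. The 4 with the smallest p were Pja2, a ubiquitin ligase gene whose link to these kinases is uncertain (-0.30, limma adjusted p = 0.218), Taok3, of the kinase family that also activates MARKs (-0.18, adjusted p = 0.437), Pim1 (-0.17, adjusted p = 0.568) and Gsk3b (0.13, adjusted p = 0.579). The polarity list, with Par-3, Par-6, atypical protein kinase C and the Scribble group, had 0 of 15 genes called and a median of -0.06. Patj, a scaffold of the Crumbs complex, was at 0.25 (adjusted p = 0.354), Pard6a at -0.37 (adjusted p = 0.417), Llgl2 at -0.21 (adjusted p = 0.512) and Crb3 at 0.15 (adjusted p = 0.513).

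Among microtubule and trafficking proteins 0 of 6 were called. Map4, the microtubule-associated protein of many non-neuronal cells, was at 7.84 in WT and 7.82 in LKB1-deficient samples, a difference of -0.02 (SE 0.10, limma adjusted p = 0.948). Map1b (0.27, adjusted p = 0.394), Rab11fip2 (-0.19, adjusted p = 0.635), Map2 (-0.11, adjusted p = 0.744) and Mapt, which encodes tau (-0.05, adjusted p = 0.864), did not pass. Of 18 signalling proteins listed for a possible link to MARK kinases, 0 were called and 12 had negative differences. Ptpn13, a tyrosine phosphatase gene whose link to MARK kinases is uncertain, had -0.55 (SE 0.15, adjusted p = 0.106). Crtc3, a CREB coactivator gene, was at 8.65 to 8.87 on WT and 8.31 to 8.61 on LKB1-deficient arrays, without overlap (-0.27, SE 0.09, adjusted p = 0.163). Hdac9, a class IIa histone deacetylase gene, had 0.44 (adjusted p = 0.352) with values of 5.90, 6.08 and 6.08 on LKB1-deficient arrays 2, 4 and 5 and 4.96 on array 1, and it was called within the second set alone (1.0, adjusted p = 0.0162). Hdac7 was at -0.23 (adjusted p = 0.395).

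Of 9 phosphatase subunits and other NUAK partners, 0 were called. Ppp1r12a, which encodes the myosin phosphatase targeting subunit MYPT1, was at 9.13 in WT and 9.03 in LKB1-deficient samples (-0.10, SE 0.10, limma adjusted p = 0.714). The catalytic subunit genes Ppp1cc (-0.37, adjusted p = 0.187) and Ppp1ca (-0.21, adjusted p = 0.336, without overlap), the Hippo kinase gene Lats2 (-0.24, adjusted p = 0.356) and Ppp1r12c (0.20, adjusted p = 0.393) had the smallest p of this list. The 7 genes of 14-3-3 proteins (the Ywha genes and Sfn), the readers of many MARK-phosphorylated sites, had a median of -0.04 with 0 called. Ywhaq was at -0.20 (adjusted p = 0.512), Ywhah at 0.15 (adjusted p = 0.528), Ywhab at -0.08 (adjusted p = 0.724) and Ywhaz at -0.07 (adjusted p = 0.755).

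**Figure D4:**
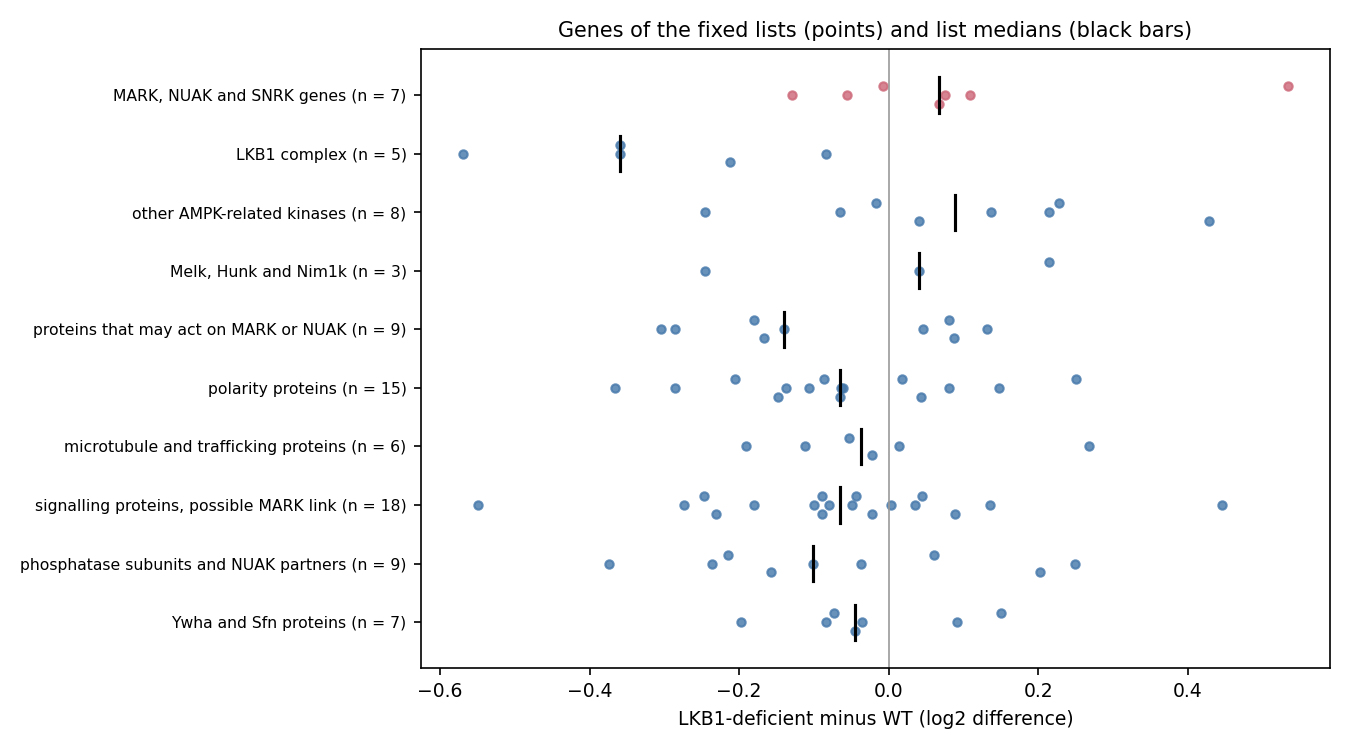
Each point is the log2 difference of 1 gene, LKB1-deficient minus WT, for the 7 kinase genes (red) and the 9 lists around them (blue), with the list median as a black bar. The 5 genes of the LKB1 complex lie at -0.08 or lower with a median of -0.36, while the kinase genes other than Nuak2 lie between -0.13 and 0.11.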

How the data were processed

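The deposited values are log2 signals of 41345 probe sets on 10 arrays. Per the submitters' processing notes, RMA, a method that corrects background, equalizes the array distributions by quantiles and summarizes probes, and Partek 6.6 were used. Per the labels' protocols, a few nanograms of RNA were amplified, which can distort levels, and quantile normalization hides shifts shared by all transcripts. The platform annotation named the probe sets: 23521 named 1 gene, 1814 several and 16010 none. The probe set with the highest mean stood for a gene, which gave 22180 genes, unfiltered. Each of the 7 measured kinase genes had a single probe set. Groups came from the sample titles. The fit used limma 3.58.1 in R 4.3.3 (lmFit, eBayes, no covariate, 4.36 prior degrees of freedom), with Benjamini-Hochberg adjustment over all genes. The code was tested on simulated data first.

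The members and lists were chosen with earlier results of these data known. Named genes were Stk11, the members, up to 4 genes of each list with the smallest p or called, chosen marker genes, and the 5 genes most like the member with the smallest p. Map4 and Ppp1r12a were named for their roles after their values had been seen. Alternatives covered probe set choice, dim genes, scaling, variances, array weights, replicate block, set, other cell types, arrays left out and the threshold. Same-numbered arrays did not deviate together (r from -0.08 to 0.10 over genes), so the numbers were not taken as pairs. These correlations cannot exclude that samples of both groups shared a chimera, since replicate numbers need not mark hosts.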

Additional observations from a re-analysis of the deposited data

How the results depend on the processing

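None of the 7 kinase genes passed the limma threshold in any of 25 alternatives, and the lowest adjusted p among these 167 values was 0.156, for Nuak2 within the second set. Each array left out in turn gave 0 kinase genes higher and 0 lower. The signs of Mark1, Nuak2 and Snrk held in all alternatives run, and the others turned in some, for causes that were not tested. Alternatives such as the prior, the replicate block and the set as a block leave every estimate unchanged, so no sign could turn in them. Mark2, at -0.0079 with all arrays, was at 0.036 after a second quantile normalization, 0.010 under array quality weights, 0.079 in the first set, 0.11 when both marker list averages entered the fit and 0.10 after removal of LKB1-deficient arrays 1, 4 and 5. Leaving out single arrays gave -0.063 to 0.030. Mark3 was at 0.074 with the list averages, at 0.071 after removal of the 3 arrays, and at -0.13 to 0.015 with single arrays left out. Mark4 was at -0.017 in the first set. Nuak1 was at -0.14 in the first set, -0.16 with the list averages and -0.14 after the removal, and at -0.012 to 0.22 with single arrays left out, the lowest of these in the absence of LKB1-deficient array 5. Nuak2 ranged from 0.35 to 0.63 over single arrays left out (adjusted p 0.172 to 0.462), the lowest in the absence of LKB1-deficient array 4. With the replicate block its difference was 0.53 (adjusted p = 0.275), and that block changed no call of the kinase genes. Subtraction of array medians lowered every estimate by the same amount, which is close in size to several of the differences. It left Mark1 at 0.017, Mark2 at -0.058, Mark3 at -0.11, Mark4 at 0.024, Nuak1 at 0.059, Nuak2 at 0.48 and Snrk at -0.18.

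Over all genes, 52 were higher and 184 lower. The lower count was 284 with the dimmest 40% removed and 363 after subtraction of array medians. Higher and lower counts were 79 and 307 under a trended robust prior, 135 and 329 under array quality weights, 14 and 36 with the replicate block, 0 and 0 in the first set (limma), 423 and 46 in the second, 5 and 20 at an adjusted p under 0.01, and 21 and 69 when every probe set was tested. The higher count was 17 when variances were not moderated, 126 with the list averages and 154 after removal of the 3 arrays. Leaving out single arrays gave 8 to 180 higher and 30 to 340 lower: leaving out WT 4 gave 8 and 30, WT 3 gave 15 and 41, WT 1 gave 17 and 48, WT 2 gave 17 and 61, WT 5 gave 24 and 64, LKB1-deficient 4 gave 23 and 84, LKB1-deficient 3 gave 41 and 118, and LKB1-deficient 1 gave 180 and 340. Of the pathway genes, 0 were called with all arrays. The trended robust prior and the weights each called 1 higher (Sik1), the second set 1 higher (Hdac9), and the list averages and the removal of the 3 arrays 1 lower each (Stk11). Single arrays left out gave 0 to 1 higher and 0 to 1 lower.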

Other observations

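The probe sets that carry Brsk1 and Brsk2 name a second gene each, so their signal cannot be assigned. The probe set shared by Brsk1 and Tmem150b (17473341) was at 4.39 ± 0.10 in WT and 4.48 ± 0.27 in LKB1-deficient samples (SD, n = 5 each), with LKB1-deficient arrays 1 and 4, at 4.69 and 4.81, above every WT array. Its difference was 0.09 (SE 0.13, limma adjusted p = 0.841 over all probe sets). The probe set shared by Brsk2 and the microRNA gene Mir3104 (17485152) was at 4.11 ± 0.36 and 4.22 ± 0.09, with WT array 2 at 4.71 above all the other arrays, and its difference was 0.11 (SE 0.16, adjusted p = 0.841).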
